A study of Saccharomyces cerevisiae with 72 samples.

Results

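The cytosolic ribosomal protein genes of budding yeast were followed through the transcriptional response to methyl methanesulfonate (MMS), a chemical that methylates DNA. A gene was taken as a member when its symbol consisted of RPL or RPS, a number and at most the letter A or B, a rule that uses symbols and no measured value. This gave 129 genes among the 5594 named genes of one deposited table and the 5592 of the other, and each member was represented by 1 probe. Of these, 74 encode proteins of the large subunit and 55 proteins of the small subunit. A and B copies were both present for 55 proteins, 31 of the large and 24 of the small subunit, which accounts for 110 genes. Another 17 genes carry no copy letter, and 2 genes with a letter had a partner that was not analysed here.

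Cultures of BY4741, a laboratory strain of Saccharomyces cerevisiae, were grown at 30 °C, divided into portions of 50 ml, and kept for 1 h with or without MMS. The first table, called the kinase table here, covers 13 strains: the double deletions tel1Δ mec1Δ, chk1Δ rad53Δ, dun1Δ rad53Δ and dun1Δ chk1Δ (labelled chk1dun1), the single deletions mec1Δ, rad53Δ, dun1Δ, crt1Δ, tel1Δ, chk1Δ, sml1Δ and ste11Δ, and wild type. Its RNA was enriched for poly(A) RNA, and MMS is given as 0.03% in the growth text and 0.033% in the treatment text of the labels. The second, called the factor table, covers 5 strains, hap1Δ, hap4Δ, sut1Δ, rcs1Δ and yap7Δ, with total RNA, 0.03% MMS and no wild type. Each array carried MMS-treated RNA in one dye and untreated RNA of the same strain in the other, and each strain had 2 replicates of 2 arrays with opposite dyes. The labels do not say whether the strains without MEC1 or RAD53 also lack SML1, a deletion often combined with them because it keeps such cells alive, nor whether the replicates came from separate cultures. The p-values below therefore measure the spread between these samples, which may be technical.

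Ribosomal protein genes are among the most strongly transcribed genes of growing yeast. Their promoters are bound by Rap1, Fhl1 and Ifh1, and nutrient signals acting through TORC1 and protein kinase A set their output together, so that growth and ribosome supply are matched. Most of the proteins are encoded by a pair of near-identical genes left by an ancient duplication of the genome, and in yeast many stresses lower the whole set for a time. Lesions left by MMS activate the sensor kinases Mec1 and Tel1, which switch on the effector kinases Rad53 and Chk1, and Dun1 acts downstream of Rad53. Crt1 represses damage-inducible genes, Sml1 inhibits ribonucleotide reductase and Ste11 belongs to the kinase cascade of mating. Hap1, Hap4, Sut1, Rcs1 and Yap7 are transcription factors of other systems.

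Values are log2 of MMS over untreated, so that -1 is a 2-fold lower level with MMS. They are relative to the other genes on the array: the median of all genes lay between -0.0093 and 0.0211 on the 52 kinase arrays and between -0.00029 and 0.0116 on the 20 factor arrays. A lower level in every cell and a smaller share of cells with a high level cannot be told apart in such cultures. The direction was checked with RNR3 and HUG1, targets of the checkpoint, which stood at 4.29 and 4.19 and at 4.15 and 3.99 in the 2 wild-type replicates. On the MMS-in-Cy5 array of dun1 replicate 2, DUN1 stood at 2.71 and MEC1 at -2.34, against -0.239 to -0.106 and -0.749 to 0.304 on the other dun1 arrays, so that this array goes against its label. The dun1 values below, and the comparison of chk1dun1 with dun1, include this array unless a setting that leaves it out is named. Without it 43 members were called lower in dun1, against 34 with it. Replicate 2 then rests on its array with MMS in Cy3 alone, so that a dye effect no longer cancels there. The share of all genes called lower without that array was not taken. Within the kinase table the wild-type replicates stood apart: the median member was at -0.13 in wild-type replicate 1 and at -0.29 in wild-type replicate 2.

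After MMS the median ribosomal protein gene lay below 0 in every strain, by a small amount. A gene is called lower or higher below where the Benjamini-Hochberg adjusted p of the limma fit, taken over all genes of the table, was under 0.05. In wild type 60 of the 129 members (46.5%) were called lower and 0 higher, against 25.4% of all genes called lower and 26.8% called higher. The median member stood at -0.22, and 126 of the members had a mean below 0. A member's response in the kinase table had a 95% interval of 0.21 on either side in the median case, about as wide as the response itself. The wild-type count rested more on replicate 2, where the median member stood at -0.29, against -0.13 in replicate 1. The share of all genes called lower with either replicate alone was not taken.

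**Figure D1:**
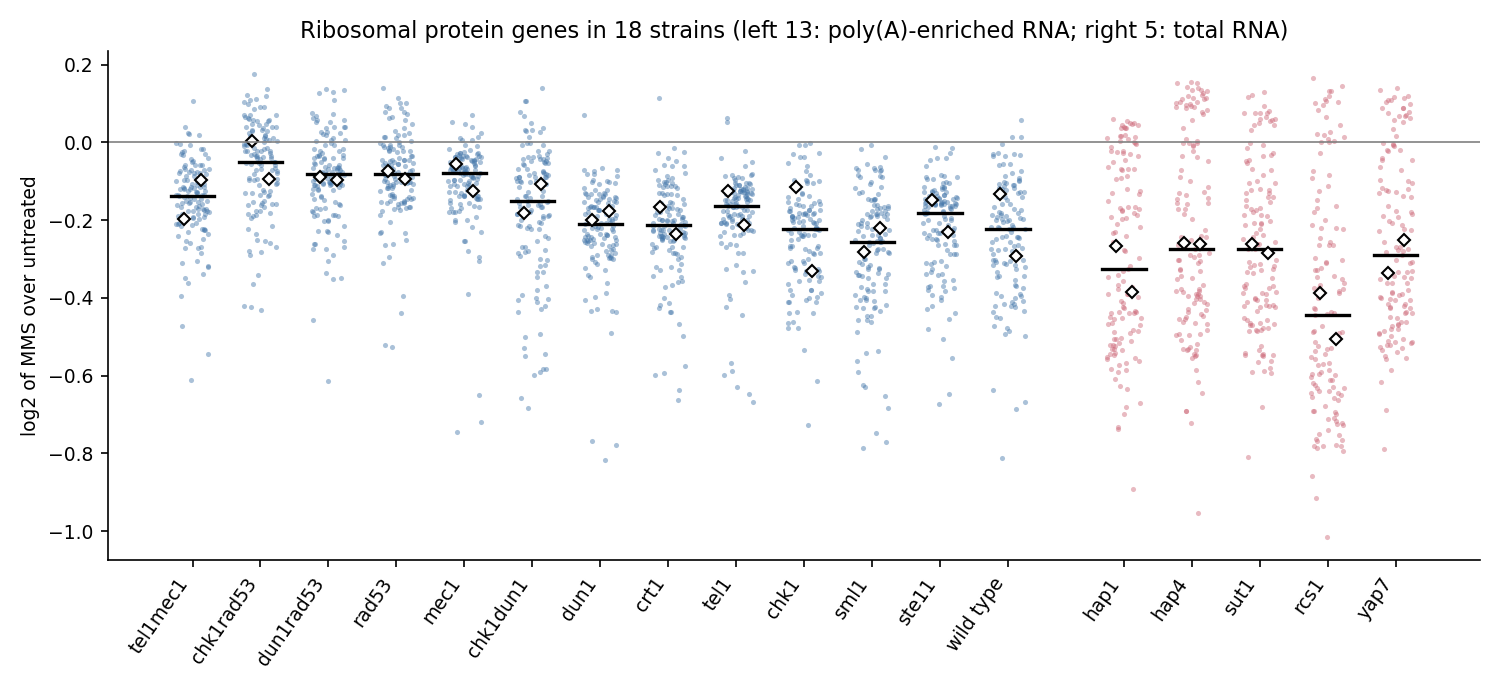
Log2 of MMS over untreated for each of the 129 ribosomal protein genes (points, mean of 2 replicates) in 18 strains; black bars are the medians over genes and white diamonds the medians of replicate 1 (left) and replicate 2 (right). The medians of tel1mec1, chk1rad53, dun1rad53, rad53 and mec1 lie between -0.14 and -0.05, those of the other kinase-table strains and wild type between -0.26 and -0.15, and those of the factor table between -0.44 and -0.27.

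In 5 strains that lack Rad53 or Mec1 the share of members called lower was below that of all genes. In tel1mec1 cells the median member stood at -0.20 and -0.097 in the 2 replicates, and 14 members (10.9%) were called lower, against 14.6% of all genes called lower and 17.4% called higher. In chk1rad53 cells the medians were 0.0035 and -0.094, and 4 members (3.10%) were called lower, against 8.9% of all genes called lower and 11.2% called higher. The first chk1rad53 replicate was the only replicate of the series whose median member did not lie below 0. In dun1rad53 cells the medians were -0.088 and -0.096 with 6 members (4.65%) called lower, against 15.3% of all genes called lower and 19% called higher. In rad53 cells the medians were -0.073 and -0.094 with 5 members (3.88%) called lower, against 16.4% of all genes called lower and 19.1% called higher. In mec1 cells they were -0.056 and -0.12 with 8 members (6.20%) called lower, against 20.3% of all genes called lower and 23.6% called higher. No member was called higher by limma in any of the 13 strains of the kinase table, and 0 had an unadjusted p under 0.05 in that direction. When all arrays were scaled to one spread, the counts were 24 in tel1mec1 (18.6%, against 21.1% of all genes called lower), 29 in chk1rad53 (22.5%, against 19.7%) and 16 in dun1rad53 (12.4%, against 21.1%). The share in chk1rad53 was then above that of all genes, while those in tel1mec1, dun1rad53, rad53 and mec1 stayed below.

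In the other 7 deletion strains of the kinase table the share of members called lower was above that of all genes, in tel1 by little. In chk1dun1 cells the medians were -0.18 and -0.11 with 32 members (24.8%) called lower, against 17.7% of all genes called lower and 21.1% called higher. In dun1 cells they were -0.20 and -0.18 with 34 members (26.4%), against 18.1% of all genes called lower and 21.8% called higher. In crt1 cells they were -0.17 and -0.23 with 41 members (31.8%), against 23.9% of all genes called lower and 26.7% called higher. Both replicate medians stood at -0.11 or lower in all 7 strains. In tel1 cells the medians were -0.13 and -0.21 with 30 members (23.3%), against 21.9% of all genes called lower and 25.7% called higher. In chk1 cells they were -0.11 and -0.33 with 60 members (46.5%), against 23.2% of all genes called lower and 26.2% called higher. In sml1 cells they were -0.28 and -0.22 with 68 members (52.7%), against 25.1% of all genes called lower and 27% called higher. The sml1 count was the highest of the kinase table. In ste11 cells the medians were -0.15 and -0.23 with 41 members (31.8%), against 23.5% of all genes called lower and 28% called higher. Counts fell to 3 in tel1, 2 in chk1 and 3 in ste11 without replicate 2 of each of these strains, and to 17, 15 and 17 in tel1, crt1 and ste11 with arrays scaled to one spread. With that scaling the member shares in these 3 strains lay below those of all genes, at 13.2% against 20.2% in tel1, 11.6% against 18.3% in crt1 and 13.2% against 17.4% in ste11.

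In the total RNA of the 5 factor strains the median member lay at -0.27 or lower. In hap1 cells the median member stood at -0.27 and -0.38 in the 2 replicates with 79 members (61.2%) called lower, against 27% of all genes called lower and 30.1% called higher. In hap4 cells the medians were -0.26 and -0.26 with 76 members (58.9%) called lower, against 26.1% of all genes called lower and 29.3% called higher. In sut1 cells they were -0.26 and -0.28 with 76 members (58.9%) called lower, against 22.5% of all genes called lower and 24.7% called higher. In all of the factor strains the member share was thus more than 2 times that of all genes. In rcs1 cells, which lack the iron regulator Aft1, the medians were -0.39 and -0.50 with 96 members (74.4%) called lower, against 27.3% of all genes called lower and 29.6% called higher. In yap7 cells they were -0.34 and -0.25 with 80 members (62.0%) called lower, against 26.2% of all genes called lower and 29.4% called higher. Members called higher were RPL4A in hap4, RPL4A and RPS2 in rcs1 and RPS0B in yap7, and none in hap1 and sut1, where 0 and 2 members had an unadjusted p under 0.05 in that direction. The 2 tables differ in RNA preparation, array design and strains, which cannot be told apart, and no test was made between them.

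Within wild type the lowest members belonged to both subunits. RPL7B, a copy of a protein of the large subunit, stood at -0.56 and -1.07 in the 2 replicates, a mean of -0.81 with a standard error of 0.14 (adjusted p = 7.7e-05). RPL22B, a copy of a protein of the large subunit that yeast can do without, stood at -0.55 and -0.82 (mean -0.69, standard error 0.12, adjusted p = 0.000128). RPS9A, a copy of a protein that binds the 5' part of the small-subunit RNA early in assembly, stood at -0.47 and -0.87 (mean -0.67, standard error 0.14, adjusted p = 0.000416). All these replicates lay below the wild-type median of the members. RPL9A was at -0.27 and -1.003, so that its mean of -0.64 (adjusted p = 0.000708) rested on replicate 2. RPL8B was at -0.36 and -0.60 (mean -0.48, adjusted p = 0.000154). The other members among the 10 lowest were RPL31B at -0.50, RPL21A at -0.49, RPS21A at -0.49, RPS30B at -0.47 and RPL7A at -0.45, with adjusted p from 0.00217 to 0.00995. Of the 10, RPL7B, RPL22B and RPL8B were called under all 10 alternatives. Among these, taking the first probe per gene could not change a member's value. Leaving out arrays of other strains acted only through the spread shared by the strains. Without replicate 2 the adjusted p was 0.0569 for RPS9A, 0.189 for RPL9A, 0.173 for RPL31B, 0.513 for RPL21A, 0.232 for RPS30B and 0.0808 for RPL7A, and without replicate 1 it was 0.0651 for RPS21A. With arrays scaled to one spread the call of RPS30B was lost as well.

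At the other end of the wild-type order no member passed the test. RPL41A, which encodes a peptide of the large subunit that is among the shortest proteins known, had 0.049 and 0.066, the highest mean of the set at 0.057 (adjusted p = 0.683). RPL36B followed with a mean of 0.015, RPS11A with 0.013, RPS23B with -0.0043 and RPS23A with -0.026. RPS23A and RPS23B encode a protein of the decoding centre. The replicates of these last 4 genes lay on both sides of 0, for RPS11A at 0.15 and -0.13.

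Over the 13 strains of the kinase table the mean of a member had a median of -0.17 and lay below 0 for 128 of the 129 genes. RPS9A had the lowest mean, -0.57, and its 26 replicates reached from -1.05 in dun1 replicate 2 to -0.15 in crt1 replicate 2 with a median of -0.57. That dun1 replicate includes the array that goes against its label. RPS9A was the only member called lower in all 13 strains. RPL22B averaged -0.54 and RPL7B averaged -0.52, each called lower in 10 strains and each highest in rad53 replicate 1, at 0.087 and 0.037. RPL18B averaged -0.48 and ranged from -0.87 to -0.14 with calls in 12 strains, all but dun1rad53. These 4 genes stood clear of the rest, since the next, RPS7A, was at -0.36. RPL21A averaged -0.34, RPS21A -0.32, RPL9A -0.31, RPL31B -0.31 and RPL21B -0.30, each called lower in 5 or 6 strains. In all, 110 members were called lower in at least 1 of the 13 strains and 19 in none, and 11 members were below 0 in all 26 replicates. Per strain 8.9% to 25.4% of all genes were called lower, and the share of all genes called in at least 1 strain was not taken.

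The 10 members least lowered over these strains were spread over both subunits. RPL10, whose protein is among the last to join the large subunit and lies near the peptidyl transfer site, was the only member with a mean above 0, at 0.012, and its replicates ranged from -0.28 in wild-type replicate 2 to 0.32 in tel1mec1 replicate 1. RPS26A averaged -0.020, RPL4A -0.031, RPL41A -0.047 and RPL5, whose protein carries the 5S RNA, -0.052. RPL41B, RPS27B, RPL33A, RPS25A and RPL14A lay between -0.070 and -0.056. Of these 10 genes only RPL4A was called lower in any strain of the table, in tel1 at -0.24 and -0.17. Each had replicates on both sides of 0, 13 to 22 of 26 below it apart from RPL10 with 11.

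The members that differed most from strain to strain were RPL7B, with an SD of 0.23 over the 13 strain means, then RPL36A with 0.22, RPL22B with 0.22, RPL9A with 0.20 and RPL31B with 0.20, against a median SD of 0.11. RPL36A was lowest in tel1, at -0.52 and -0.78, and in crt1, at -0.25 and -1.02, against -0.29 and -0.22 in wild type. Its replicates in rad53 were -0.035 and 0.081. The order of members was weakly shared between replicates of one strain: over the 129 genes the correlation of the replicates was 0.046 in wild type, 0.018 in crt1 and 0.038 in tel1mec1, and highest in chk1dun1 at 0.78, against 0.78 to 0.95 over all genes. In the factor table it was 0.78 to 0.91 over the members. These are correlations over genes that share arrays and give no test.

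In the factor table the members fell into a wider range, with a median of -0.33. RPL9A was the lowest, with 10 replicates from -1.07 to -0.74 and a mean of -0.89, and in rcs1 its mean of -1.01 made it the only called member that changed at least 2-fold in any of the 18 strains. RPS7A averaged -0.70, RPS21A -0.66, RPL23A, a copy of a protein on the face that meets the small subunit, -0.64 and RPS1A -0.62. All 5 were below 0 in all 10 replicates and were called lower in all 5 strains, as were 63 members in total. At the other end, RPL4A, whose protein lines the exit tunnel, averaged 0.11 with replicates from 0.018 to 0.17, and RPS4A averaged 0.11 with replicates from 0.028 to 0.15. RPS26A, RPS0B and RPS23A averaged 0.10, 0.10 and 0.097, each with 9 of 10 replicates above 0. In all, 108 members had a mean below 0 and 21 above, 82 were below 0 in all 10 replicates, and 28 were called lower in none of the strains. Per strain 22.5% to 27.3% of all genes were called lower, so that at most 22.5% could be called in all 5. The shares of all genes called in all 5 strains and in none were not taken.

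**Figure D2:**
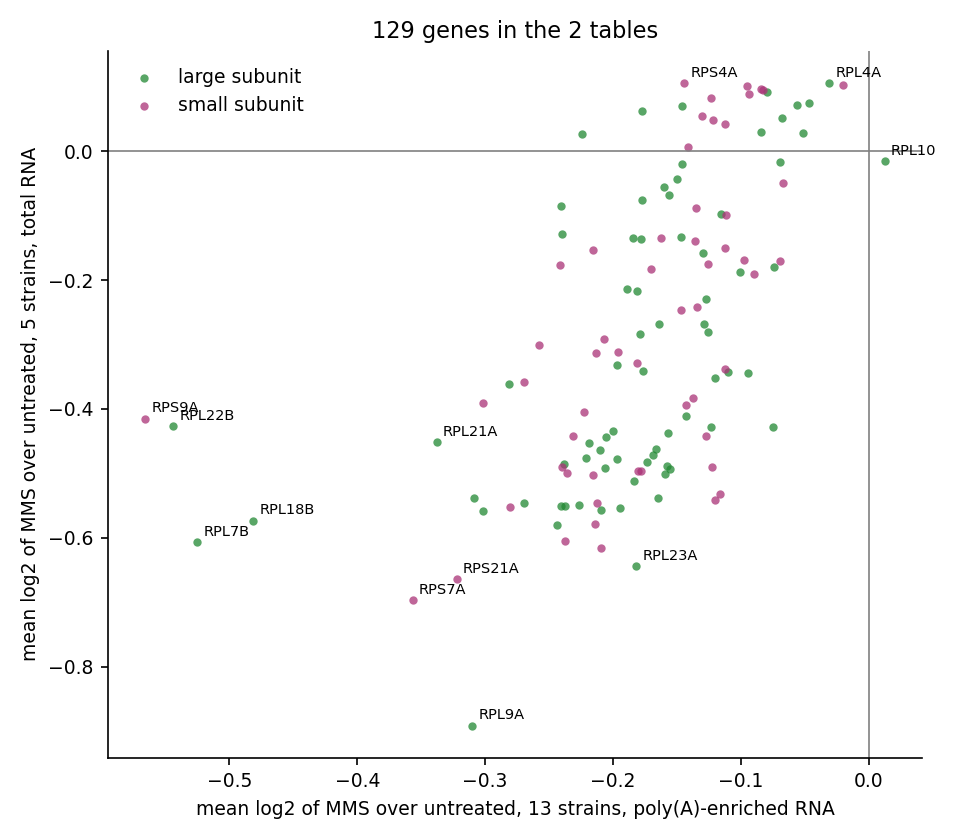
Mean log2 of MMS over untreated of each of the 129 genes over the 13 kinase-table strains (horizontal axis) and the 5 factor-table strains (vertical axis), coloured by subunit. RPS9A and RPL22B lie farthest left, RPL9A lies lowest, and 21 genes lie above 0 on the vertical axis against 1 gene to the right of 0 on the horizontal axis.

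The order of the members was partly shared by the tables. Over the 129 genes the mean values had Pearson's r = 0.57 and Spearman's rho = 0.64, against 0.93 and 0.92 over 5589 genes present in both tables, a description across genes that are not independent. RPL7B stood at -0.52 in the kinase table and at -0.61 in the factor table, and RPS9A at -0.57 and -0.41. RPL9A stood at -0.31 in the kinase table and at -0.89 in the factor table. RPS4A, near the top of the factor table at 0.11, had -0.14 in the kinase table.

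Against wild type the median member was higher in the strains without Rad53, a description with no test, and few single genes passed the test. The median member was 0.18 higher in chk1rad53, 0.17 in rad53, 0.15 in dun1rad53, 0.14 in mec1 and 0.080 in tel1mec1 than in wild type, while the median of all genes moved by at most 0.02. The wild-type values behind these differences are those of replicates whose median members lay at -0.13 and -0.29. In chk1rad53 5 members (3.88%) were called higher, against 6.31% of all genes called higher. In rad53 5 members (3.88%) were called higher, against 10.3% of all genes. In dun1rad53 4 members (3.10%) were called higher, against 7.58% of all genes. In tel1mec1 1 member (0.775%) was called higher, against 5.06% of all genes. In each of the 4 strains the share of members was thus below that of all genes, and no member was called lower.

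**Figure D3:**
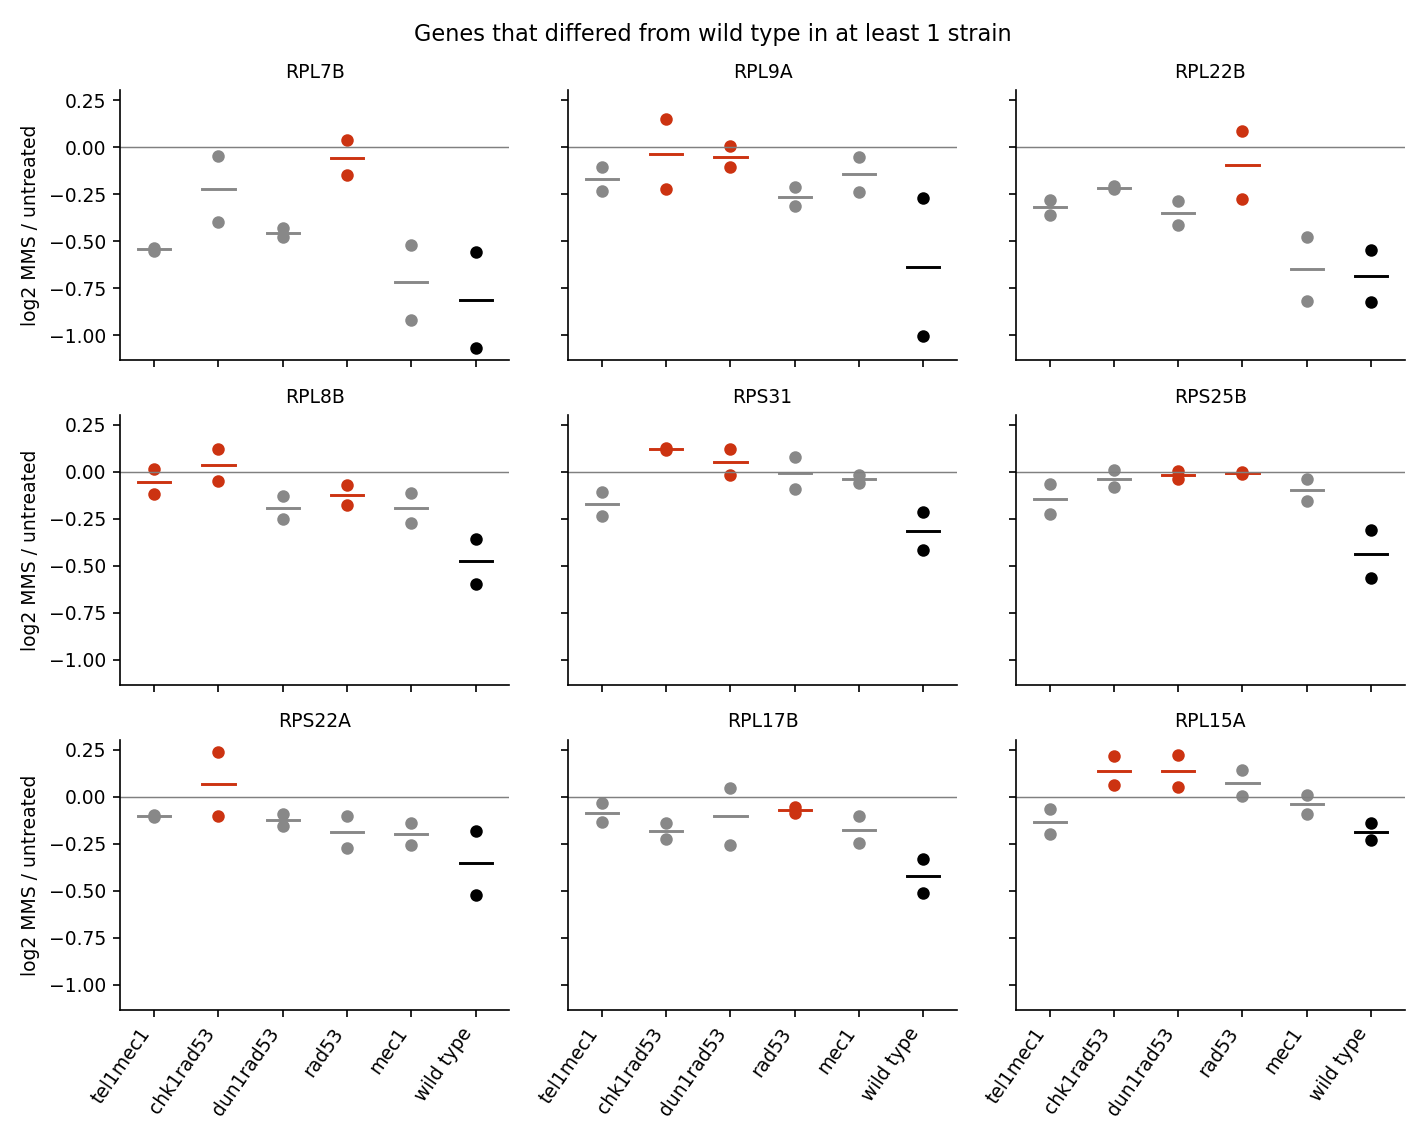
Log2 of MMS over untreated in both replicates (points) with their mean (bars) for the 9 ribosomal protein genes called higher than in wild type in at least 1 strain; red marks the strains in which the difference was called, grey the others and black wild type. RPL7B lies at 0.04 and -0.15 in rad53 against -0.56 and -1.07 in wild type, and RPL9A spans -0.27 to -1.003 in wild type.

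The largest called difference was that of RPL7B in rad53, where it stood at 0.037 and -0.15, against -0.56 and -1.07 in wild type. Its difference was 0.76 with a standard error of 0.20 (adjusted p = 0.00962). RPL22B in rad53 stood at 0.087 and -0.28, against -0.55 and -0.82 in wild type (difference 0.59, standard error 0.17, adjusted p = 0.0205). Both genes thus lay above 0 in rad53 replicate 1. RPL7B was at -0.43 and -0.48 in dun1rad53 and at -0.40 and -0.048 in chk1rad53, strains that lack Rad53 as well, where the difference from wild type was not called, at 0.36 (adjusted p = 0.237) in dun1rad53 and 0.59 (adjusted p = 0.0509) in chk1rad53. RPL9A stood at 0.15 and -0.22 in chk1rad53 (difference 0.60, adjusted p = 0.0433) and at -0.11 and 0.0052 in dun1rad53 (difference 0.59, adjusted p = 0.0447), against -0.27 and -1.003 in wild type. The wild-type replicates of RPL9A differed by more than either difference.

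RPL8B, a large-subunit protein with a copy A, was called in 3 strains. It stood at 0.12 and -0.047 in chk1rad53 (difference 0.51, adjusted p = 0.00880), at -0.073 and -0.18 in rad53 (difference 0.35, adjusted p = 0.0474) and at 0.013 and -0.12 in tel1mec1 (difference 0.43, adjusted p = 0.0271), against -0.36 and -0.60 in wild type. RPS31, which encodes a small-subunit protein fused to ubiquitin, stood at 0.13 and 0.12 in chk1rad53 (difference 0.44, adjusted p = 0.0183) and at -0.019 and 0.12 in dun1rad53 (difference 0.37, adjusted p = 0.0407), against -0.42 and -0.21 in wild type. RPS25B stood at -0.037 and 0.0038 in dun1rad53 (difference 0.42, adjusted p = 0.0385) and at -0.014 and -0.00012 in rad53 (difference 0.43, adjusted p = 0.0276), against -0.31 and -0.57 in wild type. RPL17B in rad53 (difference 0.35, adjusted p = 0.0462), RPS22A in chk1rad53 (0.42, adjusted p = 0.0302) and RPL15A in chk1rad53 (0.32, adjusted p = 0.0387) and dun1rad53 (0.32, adjusted p = 0.0373) complete the set. RPL15A, RPS22A and RPL17B, and RPL8B in rad53, lie outside the rule for naming genes and were added after their values had been seen, so that all calls are named.

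Each of the 15 called differences was lost when some single replicate was left out, 13 of them without wild-type replicate 2 and 4 without wild-type replicate 1. Without wild-type replicate 1 the number of members called was 31 in chk1rad53, 30 in rad53, 22 in dun1rad53 and 18 in tel1mec1, and without wild-type replicate 2 it was 1, 0, 2 and 0 in the same strains. Without wild-type replicate 1 the share of members called higher was above that of all genes in each of the 4 strains. Without wild-type replicate 2 it was below that of all genes in each. Either fit leaves 1 wild-type replicate, and the direction of this comparison turned with the one kept. With arrays scaled to one spread 12 of the 15 were lost. With the slide as a random block 7 were lost and 3 others were called, all 3 in chk1rad53. That fit used single arrays, so that arrays of one replicate counted as independent where they lay on different slides. The gap between dyes also stayed in its spread. Under this block 7 members were called in chk1rad53, 2 in rad53, 1 in dun1rad53 and 1 in tel1mec1. The member shares called higher stayed below those of all genes, at 5.43% against 7.37% in chk1rad53 and 1.55% against 7.7% in rad53. They were 0.775% against 6.83% in dun1rad53 and 0.775% against 3.59% in tel1mec1. No slide held wild type and any of these 4 strains with MMS in the same dye.

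In the other 8 deletion strains no member differed from wild type in the limma fit. At an unadjusted p under 0.05 the numbers were 7 in mec1, 8 in tel1, 4 in chk1, 3 in chk1dun1, 2 in crt1, 2 in ste11, 1 in dun1 and 1 in sml1. As shares these were 5.43% of members against 9.74% of all genes in mec1, 6.2% against 5.06% in tel1, 3.1% against 4.42% in chk1 and 2.33% against 10.6% in chk1dun1. They were 1.55% against 8.46% in crt1, 1.55% against 2.02% in ste11, 0.775% against 11.8% in dun1 and 0.775% against 2.47% in sml1. The share of all genes called in either direction was 1.56% in mec1, 0% in tel1, 0.0179% in chk1, 0.518% in chk1dun1, 0.268% in crt1, 0% in ste11, 0.59% in dun1 and 0% in sml1. The median member differed from wild type by 0.077 in chk1dun1, 0.052 in tel1, 0.036 in crt1, 0.029 in ste11, 0.012 in dun1, -0.00014 in chk1 and -0.039 in sml1. These medians do not show that the strains respond alike, since the 95% interval of a member's difference reached 0.29 to either side in the median case. Arrays of these strains that shared a slide and a dye with wild type were few: the median difference was 0.0083 for sml1 on slide 14, 0.174 for sml1 on slide 16 and 0.246 for dun1 on slide 16, the last 2 with MMS in Cy3, where wild-type replicate 2 had its lowest median, -0.401.

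The second deletion of a double strain changed no member in the limma fit. The members with an unadjusted p under 0.05 numbered 0 for tel1mec1 minus mec1, 1 for chk1rad53 minus rad53, 1 for dun1rad53 minus rad53 and 4 for chk1dun1 minus dun1. Of all genes 13.8%, 5.76%, 2.43% and 3.24% had such a p in these 4 contrasts, in the same order. Of all genes 2.38% were called in tel1mec1 minus mec1 and 0% in each of the other 3. The median member difference was -0.054 for tel1mec1 minus mec1, 0.033 for chk1rad53 minus rad53, 0.0032 for dun1rad53 minus rad53 and 0.065 for chk1dun1 minus dun1.

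Among the factor strains, each set against the mean of the other four, no member was called either. The strain without Rcs1 lay lowest: its median member differed from the others by -0.16, 115 of 129 members had a difference below 0, and 56 had an unadjusted p under 0.05, all lower, with a lowest adjusted p of 0.123. These were 43.4% of the members, against 5.56% of all genes lower at that level, and 0.268% of all genes were called in rcs1. On its arrays with MMS in Cy3 rcs1 had median members of -0.54 and -0.743, the lowest of the factor arrays. With MMS in Cy5 rcs1 had -0.201 and -0.166, above hap4 at -0.301 and -0.269. With both arrays of MMS in Cy5 averaged, the median member of rcs1 was -0.189. It was -0.179 in hap1, -0.114 in yap7 and -0.0795 in sut1. The part of the dye in the low place of rcs1 was not tested. In hap4 19 members were higher at an unadjusted p under 0.05 with a median of 0.061. This was 14.7% of the members. Of all genes 18.4% had such a p in either direction, 10.4% being lower and the remainder higher. The share of members higher was thus above that of all genes higher, and 2.38% of all genes were called in hap4. The unadjusted numbers were 7 in hap1, 8 in sut1 and 10 in yap7, which is 5.43%, 6.2% and 7.75% of the members against 12.9%, 15.3% and 3.31% of all genes, and 1.61%, 0.268% and 0.0536% of all genes were called.

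Copies A and B of a protein can be compared within a replicate, though near-identical copies may bind each other's probes, which would bring their values together. Averaged over pairs the copies differed by little: A minus B over the 55 pairs was 0.025 ± 0.025 (SD over 26 replicates) in the kinase table and 0.039 ± 0.021 (SD over 10 replicates) in the factor table, with A the higher copy in 35 and 28 of the 55 pairs. Single pairs differed by more. The median size of the difference was 0.046 in the kinase table, where 7 pairs exceeded 0.2, and 0.14 in the factor table, where 23 did. The copies' means correlated over pairs with r = 0.17 in the kinase table and 0.34 in the factor table. In the kinase table no pair had the same sign in all 26 replicates, whereas 28 pairs of the factor table had the same sign in all 10. In both tables together, 34 of 55 pairs kept the sign of their mean difference.

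**Figure D4:**
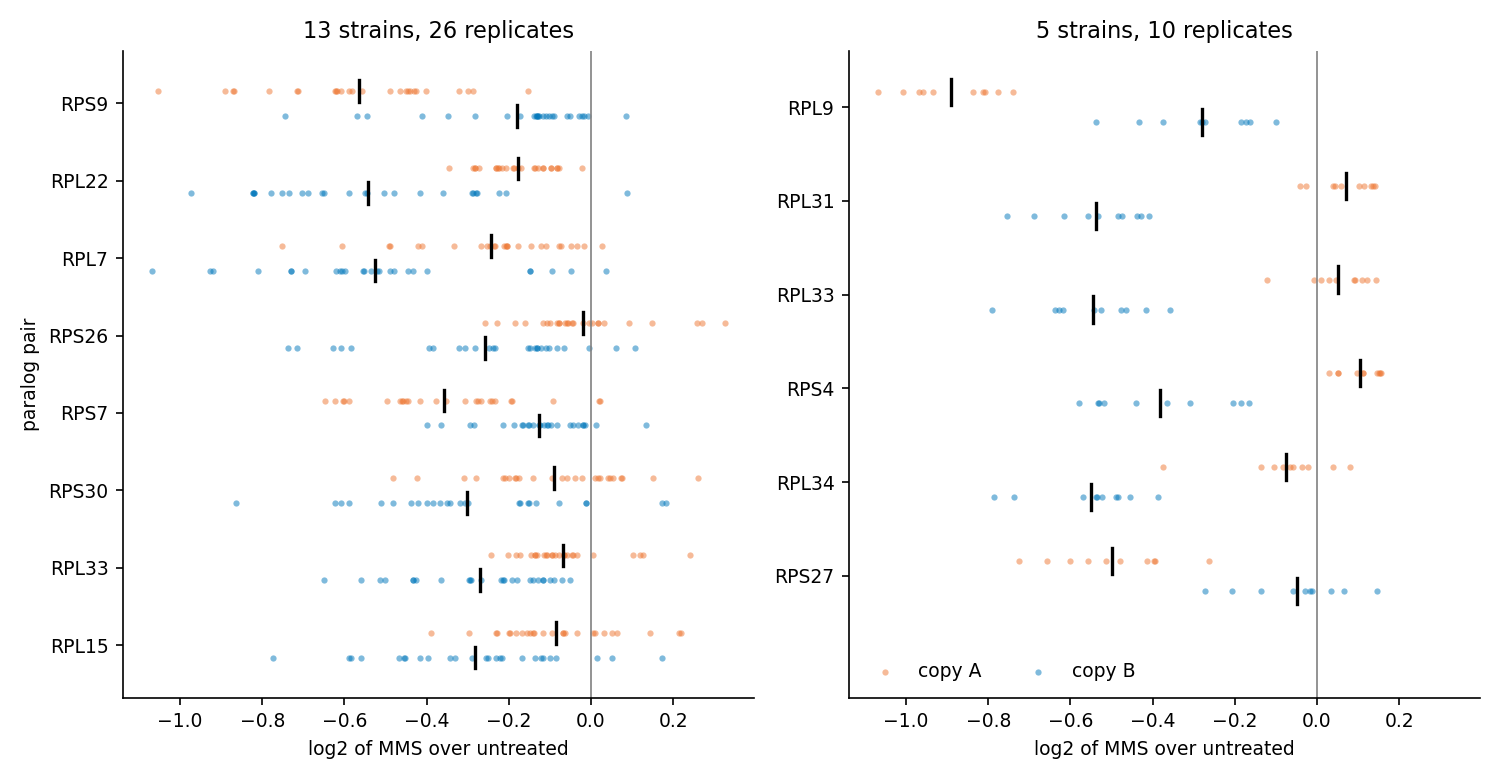
Log2 of MMS over untreated in every replicate (points) for copy A (orange, upper row of a pair) and copy B (blue, lower row), with means as black bars, for the 8 pairs that differed most in the kinase table (left) and the 6 that differed most in the factor table (right). In the factor table the copies of 5 of the 6 pairs do not overlap and those of RPS27 overlap narrowly, while in the kinase table the copies of all 8 pairs overlap.

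In the kinase table RPS9 differed most: RPS9A averaged -0.57 and RPS9B -0.18, a difference of -0.39 ± 0.25 (SD over 26 replicates), with A lower in 24. In wild type RPS9A had -0.47 and -0.87, and RPS9B had -0.030 and -0.74, so that the copies of replicate 2 lay close. RPL22A averaged -0.18 and RPL22B -0.54, with A higher in 25 of 26 replicates; the exception was rad53 replicate 1. RPL7A averaged -0.24 and RPL7B -0.52, with A higher in all 13 strain means. RPS26A averaged -0.020 and RPS26B -0.26, and RPS7A averaged -0.36 and RPS7B -0.13. The remaining 3 of the 8 were RPS30, RPL33 and RPL15, with A higher by 0.21, 0.20 and 0.20 and in 24, 24 and 22 of 26 replicates. Both dye orientations gave each of these 8 pairs the same sign.

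In the factor table RPL9 differed most, with RPL9A at -0.89 and RPL9B at -0.28, a difference of -0.61 ± 0.14 (SD over 10 replicates). In the kinase table the copies of RPL9 stood at -0.31 and -0.13. RPL31A averaged 0.070 and RPL31B -0.54, and RPL33A averaged 0.051 and RPL33B -0.55. The A copies of these last pairs thus stayed near 0 where the B copies were called lower in all 5 strains. RPS4A averaged 0.11 and RPS4B -0.38, RPL34A -0.076 and RPL34B -0.55, and RPS27A -0.50 and RPS27B -0.049. In each of the 6 pairs all 10 replicates gave the same sign, and the values of the copies overlapped only for RPS27, where the highest A value was -0.26 and the lowest B value -0.27. Of the kinase-table pairs, RPS9 had a difference of 0.081 here with A higher in 6 of 10 replicates, made up of -0.16 with MMS in Cy5 and 0.32 with MMS in Cy3, and RPL7 had 0.026. Of the factor-table pairs, RPS4 had -0.0074 in the kinase table, with A lower in 14 of 26 replicates.

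The large and the small subunit differed little. The mean of the 74 RPL genes minus that of the 55 RPS genes was -0.0075 ± 0.022 (SD over 26 replicates) in the kinase table, below 0 in 18 of 26 replicates, and -0.035 ± 0.017 (SD over 10 replicates) in the factor table, below 0 in all 10. In wild type 36 RPL genes (48.6%) and 24 RPS genes (43.6%) were called lower. In rcs1 the numbers were 56 (75.7%) and 40 (72.7%). In the kinase table chk1dun1 had the widest gap in these shares, with 22 RPL genes (29.7%) and 10 RPS genes (18.2%). Genes without a copy letter had a median of -0.16 in the kinase table and -0.17 in the factor table, beside -0.16 and -0.29 for A copies and -0.19 and -0.38 for B copies.

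The values of many members depended on which dye carried the MMS sample. Over the kinase table the median member mean was -0.11 on arrays with MMS in Cy5 and -0.21 with MMS in Cy3, and in the factor table it was -0.17 and -0.44, while the median of all genes lay between -0.0045 and 0.016. With MMS in Cy3, 102 members in the kinase table and 96 in the factor table were lower than with MMS in Cy5. RPS30B had 0.040 with MMS in Cy5 and -0.82 with MMS in Cy3 in the factor table, and -0.071 and -0.53 in the kinase table. RPL37A had the widest gap of the kinase table, with 0.040 and -0.48. RPS9A went the other way, with -0.64 and -0.49 in the kinase table and -0.58 and -0.25 in the factor table. The gap between dyes was shared in part by the tables, with r = 0.51 over the 129 genes. Averaging arrays of opposite dye cancels a constant gap, and 48 of 52 kinase arrays and all 20 factor arrays had a median member below 0. The part of the dye in the values of single members was not tested.

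**Figure D5:**
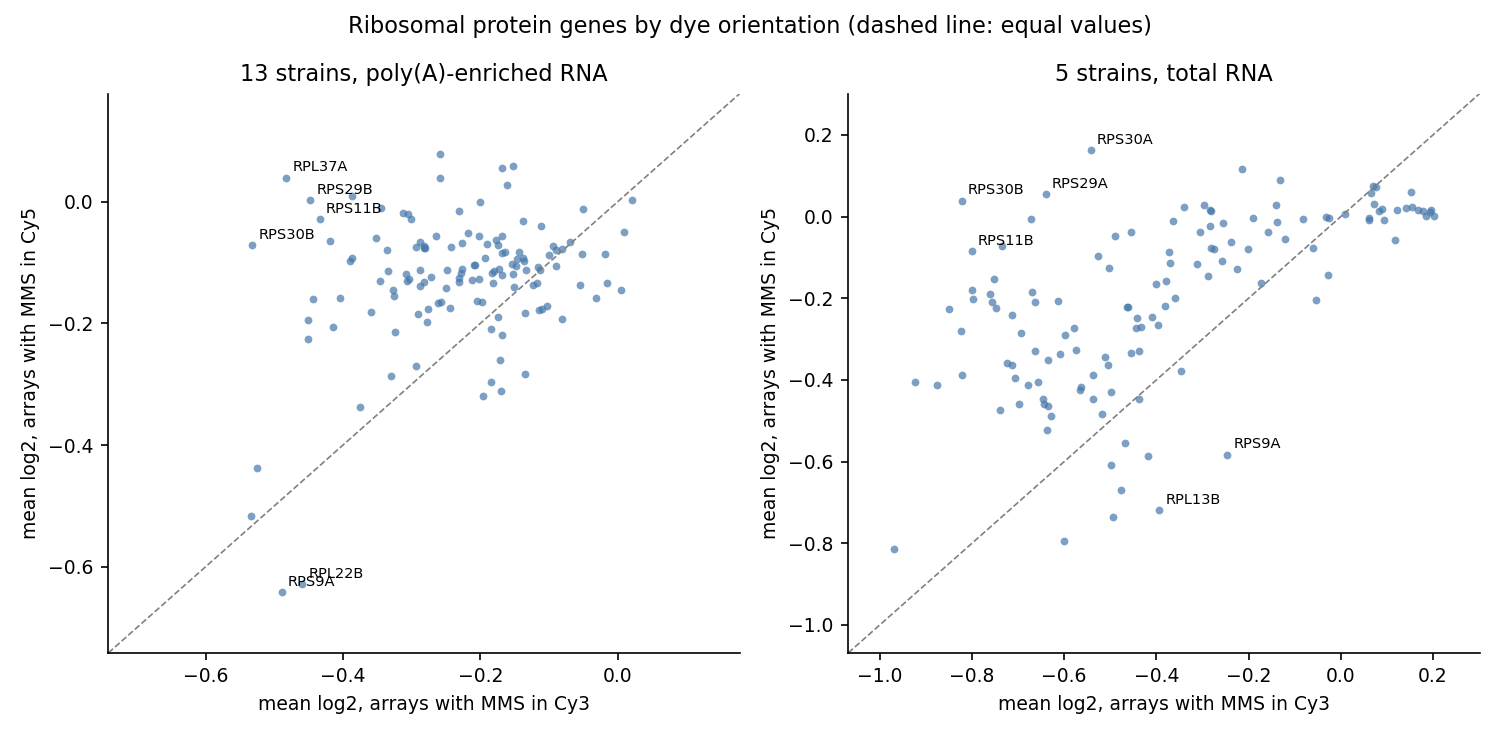
Mean log2 of MMS over untreated of each ribosomal protein gene on arrays with MMS in Cy3 (horizontal axis) and on arrays with MMS in Cy5 (vertical axis) for the kinase table (left) and the factor table (right); the dashed line marks equal values. Most genes lie above the line, 102 of 129 on the left and 96 of 129 on the right.

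The stalk proteins and the 40S head protein Asc1, which are parts of the ribosome outside the naming pattern, gave mixed values. Of RPP0, RPP1A, RPP1B, RPP2A, RPP2B and ASC1, 2 of 6 were called lower in wild type, RPP0 at -0.49 and -0.32 and ASC1 at -0.18 and -0.28. Of all genes 25.4% were called lower there. Over the factor strains RPP1A and RPP1B averaged -0.31 and -0.28 and were called lower in 3 and 4 of 5 strains. Per strain 22.5% to 27.3% of all genes were called lower. RPP0 at 0.082, RPP2A at 0.10, RPP2B at 0.024 and ASC1 at 0.068 were called lower in none. RPP2A was called higher in hap4, as were 29.3% of all genes.

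Among 11 regulators of ribosomal protein genes, 6 were called lower in wild type and 0 higher, beside 25.4% of all genes called lower. IFH1, the coactivator, stood at -0.70 and -0.73 in wild type (mean -0.72, adjusted p = 1.6e-05) and was called lower in all 13 strains. RAP1 stood at -0.47 and -0.60 and FHL1, the forkhead-like factor that recruits Ifh1, at -0.25 and -0.70, and they were called lower in 11 and 9 of 13 strains. Over the factor strains FHL1 averaged -0.50, RAP1 -0.48 and IFH1 -0.47, called lower in 5, 5 and 4 of 5 strains. TOD6, a repressor of ribosome biogenesis genes, SCH9, a kinase that acts below TORC1, and MRS6 were the other 3 called in wild type, at means of -0.63, -0.34 and -0.30. SFP1, an activator (mean -0.079), and HMO1, a protein bound at many of these promoters (-0.17), were not called there, nor were CRF1, DOT6 and STB3, whose means lay between -0.034 and 0.019.

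Among 14 chaperones of new ribosomal proteins 9 were called lower in wild type and 0 higher, beside 25.4% of all genes called lower, with a median of -0.385. The number called lower was 0 in tel1mec1 and in chk1rad53, beside 14.6% and 8.9% of all genes. It was 1 in dun1rad53 and in rad53, beside 15.3% and 16.4% of all genes. In rad53 2 were called higher, beside 19.1% of all genes. In mec1 8 were called lower, beside 20.3% of all genes, and the median of the 14 was -0.32. These counts were not tested against the shares. RRB1, which escorts Rpl3, stood at -0.76 and -0.85 in wild type, and SYO1, which carries Rpl5 and Rpl11 to the nucleus, at -0.78 and -0.80. SSZ1, of the ribosome-associated complex, stood at -0.58 and -0.66 in wild type and at -0.69 on average in the factor table. The nascent chain proteins EGD1, EGD2 and BTT1 were not called in wild type.

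Of 20 elongation and initiation factors 13 were called lower in wild type and 0 higher, beside 25.4% of all genes called lower, with a median of -0.28. TIF11, the initiation factor eIF1A, had a mean of -0.75 there, at -0.38 and -1.13, and SUI1, the initiation factor eIF1, stood at -0.47 and -0.85. TEF1 and TEF2, near-identical genes for elongation factor eEF1A, stood at 0.31 and -0.42 and at 0.34 and -0.30, replicates on opposite sides of 0. Among the factor strains 11 to 14 of the 20 were called lower in each strain, beside 22.5% to 27.3% of all genes, and TEF1 and TEF2 were called higher in hap4, at 0.16 and 0.15. SUI1, EFB1 and CDC33 averaged -0.65, -0.64 and -0.60. In chk1rad53 none was called lower, beside 8.9% of all genes.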

How the data were processed

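The deposited values were used as given: 1 normalized log2 ratio of Cy5 over Cy3 per probe and array, which the authors made with limma, per the submitters' processing notes, whose version is not given in the sources used here. The base and the centring are not stated; base 2, which limma uses, is assumed. The value tables used here hold no spot intensities, so that dim or saturated probes could not be set apart, and the arrays' number limits the precision. Probes were named through the platform annotation: the kinase table had 6269 probes, 5620 with 1 symbol and 649 with none, and the factor table had 6256, 5609 with 1 and 647 with none. Probes of one gene were averaged.

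Where MMS was in Cy3 the sign was turned, and the 2 arrays of opposite dye with the same strain and replicate number were averaged, giving n = 2 per strain. Each table was fitted on its own with 1 mean per strain in limma 3.58.1 (lmFit, eBayes; R 4.3.3, statmod 1.5.0), leaving 13 and 5 residual degrees of freedom, and the fit was tested on simulated data. The Benjamini-Hochberg adjustment ran over all genes per contrast. Contrasts were each strain against 0, each deletion minus wild type, double minus single deletions, and each factor strain against the average of the remaining factor strains. Medians, paralog and subunit differences are descriptions without a test. Replicate numbers did not pair the samples: same-numbered replicates of different strains deviated together with r from -0.821 to 0.802 in the kinase table. The median r was -0.0233, and 29 of 78 strain pairs had r above 0.1. Some strains thus shared deviations, which the fit treats as independent.

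The members, gene lists and tests were chosen with earlier results of these data known. Named are the 10 lowest and 10 highest members over the kinase table, the 5 lowest and 5 highest over the factor table, the 10 lowest and 5 highest in wild type, the 5 with the largest SD over strains, up to 3 called members in each direction of a contrast, the 8 and 6 paralog pairs that differed most, and members of the 4 other lists. Planned promoter and protein comparisons were not made here. Alternatives were other scalings, a replicate block, a robust fit, the first probe per gene, the slide as a random block, arrays that stood apart, and each replicate left out. Single dyes were an alternative for medians and for paralog and subunit differences, and not for the calls of single genes.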

Additional observations from a re-analysis of the deposited data

Results flagged for a closer look

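The 15 differences between a deletion strain and wild type that passed the test are listed for a second look because the difference itself was tested. They were RPL15A at 0.324, RPS22A at 0.419, RPS31 at 0.436, RPL8B at 0.513 and RPL9A at 0.602 in chk1rad53. In dun1rad53 they were RPL15A at 0.322, RPS31 at 0.368, RPS25B at 0.42 and RPL9A at 0.587. In rad53 they were RPL17B at 0.349, RPL8B at 0.353, RPS25B at 0.43, RPL22B at 0.591 and RPL7B at 0.756, and in tel1mec1 RPL8B at 0.425. All 15 are log2 differences of the strain minus wild type, and the replicates of the strain lay above both wild-type replicates in each. The calls held under 5 to 10 of 12 alternatives each and under all 12 for none. Not all of the 12 could change a member's value. With a single probe per member, taking the first probe per gene left it as it was. Leaving out the dun1 array reached these differences only through the spread shared by the strains.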

How the results depend on the processing

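None of the 10 lowest wild-type responses and the 15 called differences from wild type turned direction under the alternatives run. For these single genes the alternatives did not include arrays of a single dye orientation. The median member of chk1rad53, which has no test, was above 0 with MMS in Cy5 alone, at 0.0389, and without replicate 2, at 0.00354. The precision is limited by 2 replicates per strain. Of the 15 called differences from wild type 13 were lost without wild-type replicate 2 and 4 without wild-type replicate 1. The cause of the changes given here was not tested. Promoter and protein comparisons were not run.

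The number of members called lower, with 1 replicate left out, was 3 to 15 in tel1mec1, 0 to 1 in chk1rad53, 1 to 3 in dun1rad53, 1 to 6 in rad53, 1 to 4 in mec1, 6 to 17 in chk1dun1, 7 to 14 in dun1, 18 to 26 in crt1, 3 to 23 in tel1, 2 to 50 in chk1, 32 to 44 in sml1, 3 to 36 in ste11 and 14 to 60 in wild type. The share of all genes called lower with 1 replicate left out was not taken. A general loss of calls and a loss particular to the members thus cannot be told apart. With arrays scaled to one spread the number of members called lower was 24 in tel1mec1, 29 in chk1rad53 and 16 in dun1rad53. It was 15 in crt1, 17 in tel1, 17 in ste11 and 39 in wild type. With the slide as a random block on single arrays the number called lower was 6 in tel1mec1 and 4 in mec1. Arrays of one replicate on different slides count as independent in that fit. The number of members that differed from wild type, with 1 replicate left out, was 0 to 31 in chk1rad53, 0 to 22 in dun1rad53, 0 to 30 in rad53, 0 to 18 in tel1mec1, 0 to 2 in mec1 and 0 to 1 in crt1, and 0 to 1 members differed between hap4 and the other factor strains. In chk1rad53 it was 8 with arrays centred on their median, 2 with arrays scaled to one spread and 9 without 3 single arrays. With scaling it was 1 in dun1rad53, 1 in rad53 and 0 in tel1mec1, and with the slide as a random block 1 in dun1rad53 and 2 in rad53. With the replicate number as a block it was 10 in chk1rad53, and no other count moved by over 1.5 times under the block; the numbers do not pair the samples.

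The median member with MMS in Cy5 alone was 0.0389 in chk1rad53, -0.175 in dun1, -0.0653 in dun1rad53, -0.0281 in mec1, -0.147 in sml1, -0.064 in tel1mec1, -0.179 in hap1, -0.189 in rcs1, -0.0795 in sut1 and -0.114 in yap7. With MMS in Cy3 alone it was -0.204 in chk1dun1, -0.16 in chk1rad53, -0.164 in crt1, -0.239 in dun1, -0.14 in mec1, -0.426 in sml1, -0.232 in tel1mec1, -0.217 in hap4, -0.672 in rcs1, -0.435 in sut1 and -0.413 in yap7. With scaling it was -0.157 in crt1, -0.228 in dun1, -0.0986 in dun1rad53, -0.0959 in rad53 and -0.273 in hap4, and with centring -0.0923 in dun1rad53 and -0.292 in hap4. With 1 replicate left out it was -0.199 to -0.177 in dun1, -0.0963 to -0.0885 in dun1rad53 and -0.262 to -0.26 in hap4. Within slide 16 with MMS in Cy3 the median difference from wild type was 0.246 in dun1 and 0.174 in sml1.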
